A study of Mus musculus with 6 samples.

Results

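Cholesterol synthesis was followed in the fetal mouse kidney through 7 genes, chosen by name from the 23420 gene symbols of the count table: 5 enzymes (Hmgcs1, Idi1, Fdft1, Sqle and Lss) and 2 regulators (Srebf2 and Insig1). All 7 were in the table and all 7 passed the filter on low counts, so each was tested. None of them is a receptor or carrier for cholesterol uptake, so uptake is described further on from a separate list.

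RNA with poly(A) tails was sequenced from kidney cells of mouse embryos at embryonic day 18.5, the offspring of a wild-type mother and a father heterozygous for the Six2-GFP transgene. Six2 is the transcription factor of the cap mesenchyme, the nephron progenitor tissue, and fluorescence of the transgene marked it in the dissected kidneys. Six2-high cells were GFP positive, and Six2-low cells, GFP negative by a gate set on kidneys without the transgene, were a mixture of the other kidney cells; the sort was run in 3 experiments, and scatter gates were set against red blood cells. Each fraction had 3 libraries. The titles tie the libraries into preparations: replicate 1 carries the tag 14_6 and the TRI RNA kit, and replicates 2 and 3 share the tag 17_7, with the Norgen kit and the TRI kit. The protocol describes 11 embryos, of which 7 carried the transgene, without separating kidneys by embryo, so a library may pool embryos. The labels do not say whether replicates 2 and 3 came from different animals, and p-values measure only the spread between these libraries, which may be technical.

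Libraries held 23535399 to 29791421 counts. Six2 checked the sort, at 849, 1479 and 1344 CPM (counts scaled to the TMM-adjusted library size) in Six2-high replicates 1 to 3 and at 23.4, 11.2 and 11.1 in Six2-low. Of 10 cap mesenchyme markers, Six2 itself among them, all 10 were higher in Six2-high, as were 3285 of all 15347 genes tested. Their summed level, with Six2 included, was 3104 to 4914 CPM against 233 to 295 CPM. Rn45s, a ribosomal RNA precursor, made up 9.59% of the counts of Six2-high replicate 3 and at most 0.68% of those of any other library. Leaving out Rn45s and Lars2 before scaling changed the call of none of the 7 genes.

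Cells build cholesterol from acetyl-CoA. The mevalonate segment of the pathway ends in isoprenoid units, which also feed protein prenylation, dolichol and ubiquinone, and the sterol segment joins them into squalene, closes the rings and trims lanosterol to cholesterol. SREBP-2, the product of Srebf2, is held in the endoplasmic reticulum by Insig proteins when sterols are plentiful. When sterols fall it travels with Scap to the Golgi, is cut by the site-1 and site-2 proteases, and enters the nucleus to raise transcription of synthesis genes, of Insig1 and of its own gene. Tubule cells, progenitors and stroma all need sterol for membranes.

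On mm10 (GENCODE M21), Hmgcs1 lies on chromosome 13 from 119690379 to 119708260, Idi1 on chromosome 13 from 8885501 to 8892451 and Fdft1 on chromosome 14 from 63145150 to 63179578. Sqle lies on chromosome 15 from 59315077 to 59331192, Lss on chromosome 10 from 76531588 to 76557138, Srebf2 on chromosome 15 from 82147181 to 82205379 and Insig1 on chromosome 5 from 28071363 to 28078662. Fdft1 is on the minus strand and the other 6 are on the plus strand. Without the strand setting of the counting, the counts of genes that share exon bases with another gene are uncertain. Fdft1 shares 774 exon bases with Ctsb on the opposite strand, which had 48524 counts over all libraries against 8338 for Fdft1. For Lss, 381 exon bases are shared with 4930483K19Rik, which had 206 counts against 3625. For Hmgcs1, 557 bases are shared with Gm48342, and for Idi1, 323 with Gm48574. Neither symbol is a row of the table, so how many of their reads were counted for Hmgcs1 and Idi1 is not known.

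The promoters of 3 genes that the results turn on are shown, from RefSeq on GRCm38.p6 (mm10), plus strand: Hmgcs1, which differed between fractions, and the regulator genes Insig1 and Srebf2. Each run begins 250 bases before the RefSeq start and stops at that start or at the first base GENCODE M21 annotates as exon of the gene. They are chr13:119690101-119690350 for Hmgcs1 (250 bases), chr15:82147019-82147180 for Srebf2 (162 bases) and chr5:28071162-28071362 for Insig1 (201 bases). Capitals mark matches on either strand to 4 short motifs: TCACCCCA, the core of the sterol regulatory element that SREBP binds, CCAAT, the NF-Y box, GGGCGG, the Sp1 box, and CACGTG, the palindromic E-box. Overlapping matches were counted.
Hmgcs1: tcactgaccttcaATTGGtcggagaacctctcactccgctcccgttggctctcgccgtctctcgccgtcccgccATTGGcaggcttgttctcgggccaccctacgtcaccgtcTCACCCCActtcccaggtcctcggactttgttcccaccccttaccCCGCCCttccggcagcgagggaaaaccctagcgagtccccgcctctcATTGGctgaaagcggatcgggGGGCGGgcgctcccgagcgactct
Srebf2: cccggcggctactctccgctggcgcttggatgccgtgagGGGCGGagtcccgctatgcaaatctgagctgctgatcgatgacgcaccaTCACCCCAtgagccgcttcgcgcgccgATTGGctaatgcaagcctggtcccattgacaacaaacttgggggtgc
Insig1: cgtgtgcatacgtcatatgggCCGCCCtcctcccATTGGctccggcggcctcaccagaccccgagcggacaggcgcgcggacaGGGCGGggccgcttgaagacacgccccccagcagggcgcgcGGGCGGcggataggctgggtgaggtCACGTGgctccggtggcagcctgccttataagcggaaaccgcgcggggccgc

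The sterol element core occurred once in the Hmgcs1 promoter, beginning 137 bases before the start, and once in that of Srebf2, 162 bases before it. It was found in 1.34% of 32851 promoter windows of 250 bases. The run of Hmgcs1 also held 3 CCAAT boxes and 2 Sp1 boxes. CCAAT occurred in 33.8% and GGGCGG in 32.7% of all windows. The run of Insig1 held 1 CCAAT box, 3 Sp1 boxes and 1 E-box, 101 bases before the start; 6.02% of all windows held an E-box. Of the 7 genes, 5 had a promoter in the table. The windows of Insig1, Idi1 and Lss held no sterol element core, and of the 5 only that of Insig1 held an E-box. A match is a description of the letters, not a site shown to be bound.

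Hmgcs1 was lower in Six2-high, the 1 call among the 7 genes in the comparison of fractions without a block. It encodes cytosolic HMG-CoA synthase, which makes the precursor of mevalonate. Its level was 108, 114 and 131 CPM in Six2-high replicates 1 to 3, and 189, 253 and 284 CPM in Six2-low. The fractions did not overlap, and Six2-high was lower in 3 of 3 preparations. The means were 118 ± 11.7 CPM (SD, n = 3) and 242 ± 48.5 CPM, giving a log2 difference of -1.04 with an SE of 0.16 (adjusted p = 0.00084, edgeR quasi-likelihood test). By preparation the log2 difference was -0.80, -1.15 and -1.12. Among all 15347 genes tested, 28.7% were lower in Six2-high and 50.1% differed in either direction, so 1 of 7 is below the share of all genes. The fractions did not overlap for 1 of the 7 genes, against 60.0% of all genes.

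**Figure D1:**
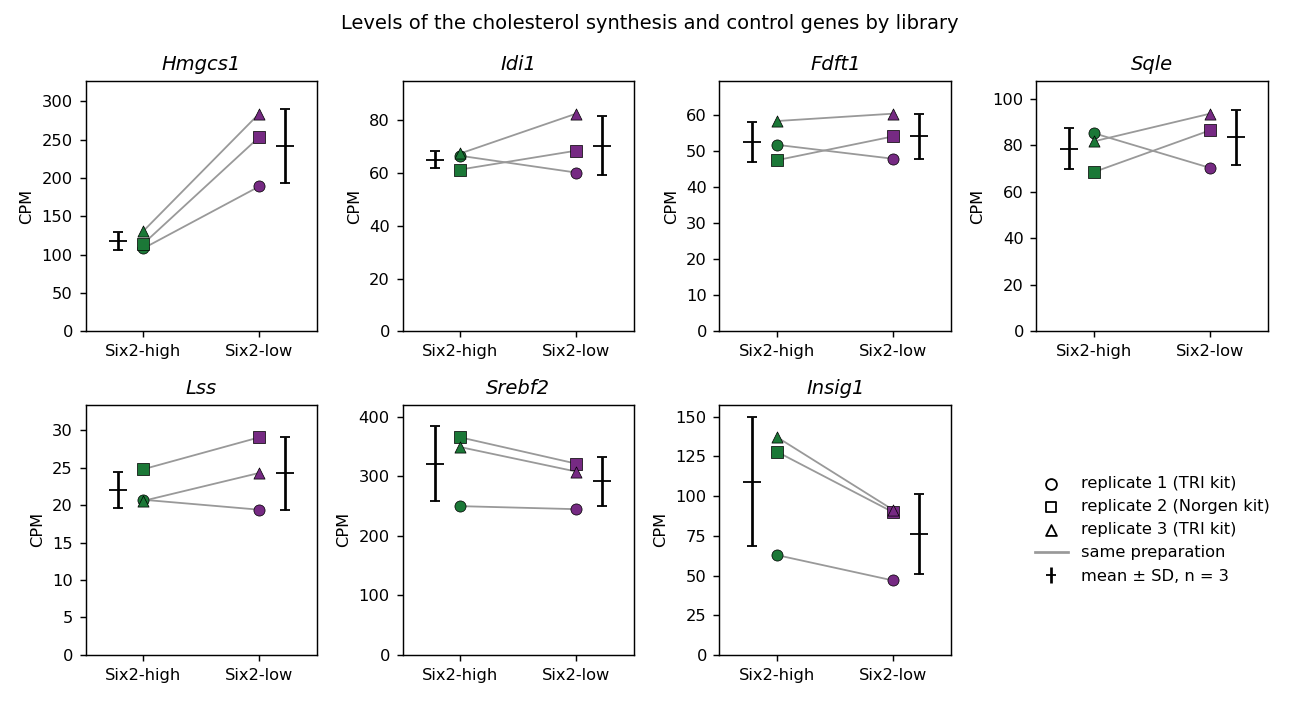
Level in CPM (vertical axis, from 0) of the 7 genes in the Six2-high and Six2-low libraries (horizontal axis), with a line joining the libraries of a preparation and bars for the mean ± SD of 3 libraries. Hmgcs1 was lower in each Six2-high library (108 to 131 CPM) than in each Six2-low library (189 to 284 CPM), and for Insig1 and Srebf2 replicate 1 lay lowest in both fractions.

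Marker genes of other kidney cells moved with the same contrast. The 8 proximal tubule markers summed to 76.5 to 131 CPM in Six2-high and 1327 to 1677 CPM in Six2-low, the 8 stromal markers to 219 to 275 against 2352 to 2818 CPM, and the 7 endothelial markers to 23.0 to 25.4 against 755 to 1311 CPM. The 8 ureteric bud and collecting duct markers summed to 57.0 to 62.4 against 674 to 817 CPM, the 7 of the loop of Henle and distal tubule to 3.42 to 9.49 against 656 to 797 CPM, and the 6 podocyte markers to 42.6 to 56.1 against 760 to 884 CPM. The 7 immune markers summed to 1.39 to 2.11 against 181 to 394 CPM and the 3 tested erythroid markers to 5.65 to 18.6 against 137 to 1738 CPM; Hba-a1 and Hbb-b1 had 0 counts in every library. The 8 early nephron markers, at 1115 to 1993 against 1510 to 1792 CPM, had 1 higher and 3 lower. All tested members of the other lists of this paragraph were lower in Six2-high, except Foxd1 of the stroma, which was higher, and Pvalb of the distal tubule, which did not pass. Their part in the difference of Hmgcs1 was not tested, and in such bulk samples fewer cells of a type and less RNA per cell cannot be told apart.

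The other 4 enzymes did not pass the test. Idi1, the isomerase that readies isoprenoid units for chain building, was at 66.6, 61.4 and 67.5 CPM in Six2-high and 60.2, 68.5 and 82.6 CPM in Six2-low. Fdft1, squalene synthase, was at 51.6, 47.4 and 58.2 CPM against 47.8, 54.0 and 60.3 CPM. In both genes the fractions overlapped, with log2 fold changes of -0.11 (SE 0.13, edgeR adjusted p = 0.51) for Idi1 and -0.043 (SE 0.13, adjusted p = 0.80) for Fdft1.

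Sqle, squalene epoxidase, which catalyses a rate-limiting oxidation of the sterol segment, was at 85.1, 68.5 and 81.7 CPM in Six2-high against 70.2, 86.4 and 93.6 CPM in Six2-low. Lss, lanosterol synthase, which folds the epoxide into the first sterol ring system, was at 20.7, 24.8 and 20.6 CPM against 19.4, 29.1 and 24.3 CPM. The fractions overlapped again. The log2 fold changes were -0.088 (SE 0.14, edgeR adjusted p = 0.62) for Sqle and -0.14 (SE 0.17, adjusted p = 0.53) for Lss. A p above the threshold does not show equal levels, and the SE sets the size of a difference that could have been seen.

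Within preparations these 4 enzymes did not keep 1 direction. In replicate 1 each was higher in Six2-high, by 0.28 log2 units for Sqle, 0.14 for Idi1, 0.11 for Fdft1 and 0.095 for Lss. In replicates 2 and 3 each was lower in Six2-high, with log2 differences of -0.33 and -0.20 for Sqle, -0.16 and -0.29 for Idi1, -0.19 and -0.049 for Fdft1, and -0.23 and -0.24 for Lss. This split by tag was tested after it was seen, as an interaction of fraction and tag across all genes. It did not pass for any of the 4 (edgeR adjusted p = 0.64 for Sqle, 0.89 for Idi1, 0.96 for Lss and 0.99 for Fdft1), and 0 of 15347 genes passed it, with 1256 at an unadjusted p under 0.05. The tag 14_6 has 1 pair of libraries.

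Srebf2, the regulator of the pathway, was at 250, 365 and 349 CPM in Six2-high replicates 1 to 3 and 245, 321 and 308 CPM in Six2-low. The fractions overlapped, with a log2 fold change of 0.14 (SE 0.17, edgeR adjusted p = 0.52). Insig1, which retains the SREBP complex in the endoplasmic reticulum and whose own gene SREBP activates, was at 62.8, 128 and 137 CPM in Six2-high and 46.9, 89.9 and 91.3 CPM in Six2-low. The fractions overlapped, since Six2-high replicate 1 lay below Six2-low replicates 2 and 3. Within each preparation Insig1 was higher in Six2-high, by 0.42, 0.51 and 0.58 log2 units. Without a block its log2 fold change of 0.52 (SE 0.33) did not pass (edgeR adjusted p = 0.22). It fell to 0.23 without Six2-low replicate 1 (adjusted p = 0.58) and to 0.31 without Six2-high replicate 3 (0.54), and was 0.78 without Six2-high replicate 1 (0.046). With the preparation as a replicate block it was 0.51 (SE 0.067, edgeR adjusted p = 0.00097), a fit in which 64.6% of all genes were called. Hmgcs1 was called in the block fit as well (-1.02, SE 0.088, adjusted p = 0.00015), and the other 5 genes were not.

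Insig1 also differed between preparations. Its replicate 1 level was 47.4% of the mean of replicates 2 and 3 in Six2-high and 51.7% in Six2-low, while replicates 2 and 3, which share a tag and differ in kit, were 0.10 and 0.023 log2 units apart. An F test of the preparation terms, with the 2 fractions of a preparation standing as its replicates, called Insig1 (edgeR adjusted p = 0.016) and none of the other 6 genes, in a test that called 1.56% of all genes. Srebf2 came next (adjusted p = 0.059), with replicate 1 at 69.9% and 77.8% of the mean of replicates 2 and 3. The call of Insig1 was lost without Six2-high replicate 2 (adjusted p = 0.055), Six2-high replicate 3 (0.15) or Six2-low replicate 3 (0.11), fits that have 1 residual degree of freedom. The tag, the animals and any other difference between those preparations cannot be told apart.

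Replicate 1 was the lowest library of both fractions for 3 of the 7 genes, Hmgcs1, Srebf2 and Insig1, where 19.0% of all genes had that order, a count made after the values were seen. Fractions of replicate 1 also differed in their marker genes. In Six2-high its 10 cap mesenchyme markers summed to 3104 CPM against 4914 and 4466 CPM, with 9 of 10 lowest in that library, and its 8 early nephron markers to 1993 against 1115 and 1147 CPM, with 8 of 8 highest. In Six2-low its endothelial markers summed to 1311 against 760 and 755 CPM, its 7 immune markers to 394 against 181 and 196 CPM, with 7 of 7 highest, and its erythroid markers to 1738 against 137 and 139 CPM. The cap mesenchyme and early nephron sums were also highest in that library. Sums of proximal tubule (1327 against 1677 and 1624 CPM), loop and distal tubule, podocyte, collecting duct and stromal markers were lowest there. Single markers did not all follow these sums, and 5 of the 8 ureteric bud and collecting duct markers were highest in that library. So were 1 of 8 proximal tubule, 2 of 7 loop and distal tubule, 1 of 6 podocyte and 2 of 8 stromal markers. The part of these markers in the levels of Insig1 and Srebf2 was not tested.

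**Figure D2:**
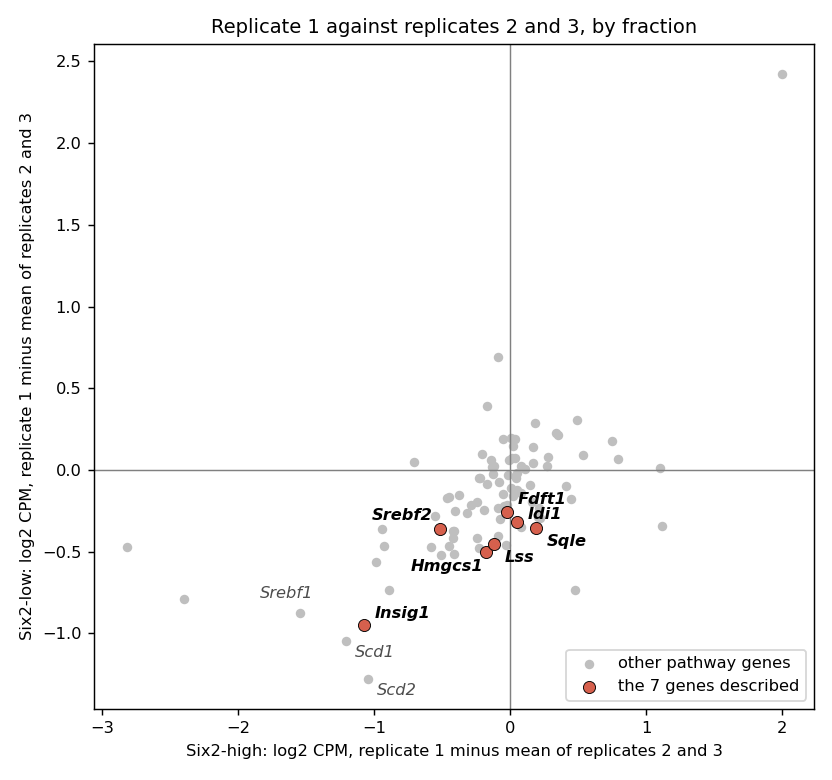
Difference in log2 CPM between replicate 1 and the mean of replicates 2 and 3, in Six2-high (horizontal axis) and Six2-low (vertical axis), for the 7 genes (red) and the other tested genes of the pathway lists (grey). Insig1 lay near -1.07 and -0.95 beside Scd1, Scd2 and Srebf1, while Sqle and Idi1 were slightly above 0 in Six2-high and below 0 in Six2-low.

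Levels were compared between genes only per kilobase of the longest principal transcript in GENCODE M21 (RPKM from the same scaled libraries). In Six2-high the order was Srebf2 (63.3 ± 12.3 RPKM, SD, n = 3), Insig1 (40.5 ± 15.0), Hmgcs1 (34.0 ± 3.39), Sqle (28.4 ± 3.17), Idi1 (21.5 ± 1.09), Fdft1 (14.2 ± 1.48) and Lss (4.72 ± 0.51). In Six2-low Hmgcs1 (69.9 ± 14 RPKM) and Srebf2 (57.3 ± 8.05) stood first, with ranges that overlapped, then Sqle (30.2 ± 4.33), Insig1 (28.2 ± 9.36), Idi1 (23.3 ± 3.73), Fdft1 (14.6 ± 1.69) and Lss (5.20 ± 1.03). The range of Insig1 overlapped those of its neighbours in the order in both fractions, as did those of Sqle and Idi1 in Six2-low. Lss was lowest of the 7 in each of the 6 libraries.

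The rest of the pathway was described from lists written for this purpose. Of 8 tested genes of the mevalonate segment, 1 was called, Hmgcs1, lower in Six2-high, with a median log2 fold change of -0.12. Over all tested genes the median was 0.046, and 50.1% were called. Mvk, mevalonate kinase, was at -0.34 (SE 0.13, edgeR adjusted p = 0.062, 0.016 with the replicate block and 0.048 without Six2-low replicate 1). Acat2, Pmvk, Mvd and Fdps, which make acetoacetyl-CoA, phosphorylate and decarboxylate mevalonate and join isoprenoid units, were at -0.17, 0.14, -0.11 and -0.12, none of them called. Single libraries moved these values: leaving out Six2-high replicate 1 put Acat2 at -0.35 and Pmvk at 0.0029, and leaving out Six2-high replicate 2 put Acat2 at -0.023 and Mvd at -0.0037. Idi2, a paralog of Idi1, had 2 counts over all libraries and was not tested.

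Of 13 tested genes of the sterol segment, 3 were called, each lower, with a median of -0.14. Among all genes tested, 50.1% were called and 28.7% were lower. Cyp51, the lanosterol demethylase, was at 56.3 ± 5.90 against 79.4 ± 12.1 CPM (-0.49, SE 0.14, edgeR adjusted p = 0.019), and lost its call in 5 of 14 alternatives, among them without Six2-low replicate 2 (adjusted p = 0.059) or 3 (0.083). Nsdhl, of the following demethylation steps, was at -0.40 (SE 0.14, adjusted p = 0.048) and kept its call in 6 of 14. Dhcr7, Ebp, Msmo1, Hsd17b7 and Lbr were between -0.45 and -0.13 and Sc5d and Tm7sf2 were at 0.19 and 0.46, none of them called. Ebp was called without Six2-high replicate 1 (-0.66, adjusted p = 0.026) and Dhcr7 without Six2-low replicate 1 (-0.44, adjusted p = 0.043). With the replicate block Dhcr7, Ebp and Tm7sf2 joined the calls, so the counts became 1 higher and 5 lower, and for the mevalonate segment 1 and 2. That fit called 64.6% of all genes.

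**Figure D3:**
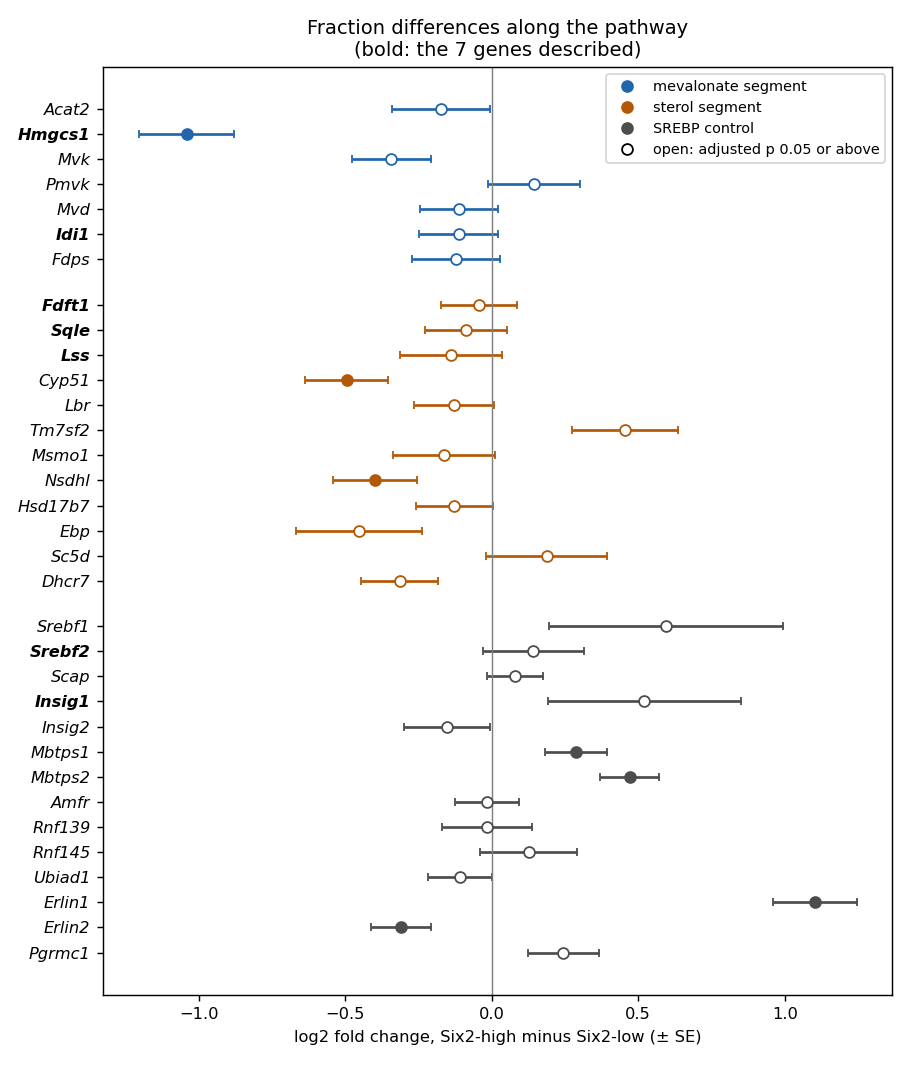
Log2 fold change between Six2-high and Six2-low with its SE (horizontal axis) for the reported genes of the mevalonate segment, the sterol segment and SREBP control, in pathway order (vertical axis), with filled points for adjusted p under 0.05. Of the genes drawn, Hmgcs1 (-1.04) lay farthest below 0 and Erlin1 (1.10) farthest above it, and Idi1, Fdft1, Sqle and Lss lay between -0.14 and -0.043.

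Of 14 genes of SREBP control, 3 were higher and 1 lower, or 6 and 1 with the replicate block, with a median of 0.13. Of all genes, 50.1% were called without the block and 64.6% with it. Erlin1, an endoplasmic reticulum protein that takes part in the degradation of sterol-regulated proteins, was at 97.4, 104 and 115 CPM in Six2-high and 58.5, 42.1 and 47.1 CPM in Six2-low (1.10, SE 0.14, edgeR adjusted p = 0.00028). Its relative Erlin2 went the other way (-0.31, SE 0.10, adjusted p = 0.033), a call kept in 7 of 14 alternatives. Mbtps2, the site-2 protease, was at 0.47 (SE 0.10, adjusted p = 0.0050) and Mbtps1, the site-1 protease, at 0.29 (SE 0.10, adjusted p = 0.048), the latter called in 4 of 14 alternatives. Scap was at 0.079 (SE 0.096, adjusted p = 0.52) and Insig2, the second Insig gene, at -0.15 (SE 0.15, adjusted p = 0.42).

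Srebf1, which encodes the SREBP form that mainly serves fatty acid synthesis, was at 98.8, 310 and 269 CPM in Six2-high and 96.1, 184 and 170 CPM in Six2-low. Like Insig1 it was lowest in replicate 1 of both fractions, and the preparation test called it (edgeR adjusted p = 0.049). Its fraction difference of 0.59 (SE 0.40) did not pass (adjusted p = 0.25, and 0.023 with the replicate block). It was 0.93 without Six2-high replicate 1 (edgeR adjusted p = 0.020), 0.31 without Six2-high replicate 2 (0.56) and 0.31 without Six2-low replicate 1 (0.57). In the 7 lists together the preparation test called 7 of 92 tested genes, against 1.56% of all genes. They include Scd1 and Scd2, desaturases that introduce the double bond of monounsaturated fatty acids. Scd2 was at 764, 1602 and 1560 CPM in Six2-high and 491, 1187 and 1194 CPM in Six2-low (adjusted p = 0.014). Scd1 was at 17.4, 40.8 and 40.0 CPM against 20.9, 44.5 and 42.3 CPM (adjusted p = 0.019). Apoa1, called as well (edgeR adjusted p = 0.047), was instead highest in replicate 1 of both fractions. Its levels were low, at 1.67, 0.38 and 0.34 CPM in Six2-high and 2.33, 0.43 and 0.32 CPM in Six2-low.

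Genes of sterol uptake and intracellular transport had 3 higher and 6 lower of 15, where 50.1% of all genes were called, or 3 and 8 with the replicate block, where 64.6% were. Their median was -0.36; how this share compares with that of the synthesis genes was not tested. Vldlr, a lipoprotein receptor, was at 10.8, 20.8 and 20.5 CPM in Six2-high and 102, 139 and 145 CPM in Six2-low (-2.89, SE 0.26, edgeR adjusted p = 3.4e-05). Lrp8, a related receptor, was higher, at 19.6, 34.2 and 21.5 against 6.85, 9.12 and 6.52 CPM (1.74, SE 0.25, adjusted p = 0.00048). Mylip, the ubiquitin ligase that marks lipoprotein receptors for degradation, rose by 1.35 (SE 0.14, adjusted p = 6.9e-05). Lipa, the lysosomal lipase that frees cholesterol from its esters, was at 20.9 ± 1.42 against 56.1 ± 3.29 CPM (-1.42, SE 0.11, adjusted p = 1.6e-05), and Stard4, a cytosolic sterol carrier, was at -1.71 (SE 0.18, adjusted p = 7.6e-05).

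Of 15 genes of efflux, esterification and oxysterols, 1 was higher and 7 were lower, or 1 and 9 with the replicate block, beside the same shares of all genes, 50.1% and 64.6%. Their median was -0.86. Nceh1, a cholesteryl ester hydrolase, was at 11.8 ± 0.54 against 39.5 ± 6.78 CPM (-1.74, SE 0.16, edgeR adjusted p = 3.3e-05). Soat1, which makes the esters, was at -0.67 (SE 0.18, adjusted p = 0.015, called in 10 of 14 alternatives and not without Six2-low replicate 2 or 3), and Pltp, a phospholipid transfer protein, was the higher gene (1.22, SE 0.26, adjusted p = 0.0043). Of 13 tested fatty acid synthesis genes, 3 were higher and 3 lower, or 6 and 4 with the replicate block. Elovl6 and Fasn, which extend and build palmitate, were at 0.69 (SE 0.14, adjusted p = 0.0030) and 0.58 (SE 0.16, adjusted p = 0.016, called in 11 of 14 alternatives and not without Six2-low replicate 1 or 3), and Me1, the cytosolic malic enzyme, at -1.10 (SE 0.18, adjusted p = 0.00095). Of 14 genes of other isoprenoid branches, 2 were higher and 3 lower, or 3 and 3 with the replicate block. Nus1, of dolichol synthesis, was at 59.7 ± 1.18 against 101 ± 8.96 CPM (-0.76, SE 0.11, adjusted p = 0.00041), Zmpste24, a protease of prenylated proteins, at -0.59 (SE 0.12, adjusted p = 0.0034) and Ggps1, geranylgeranyl diphosphate synthase, at 0.49 (SE 0.12, adjusted p = 0.011, called in 11 of 14 alternatives and not without Six2-low replicate 2).

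**Figure D4:**
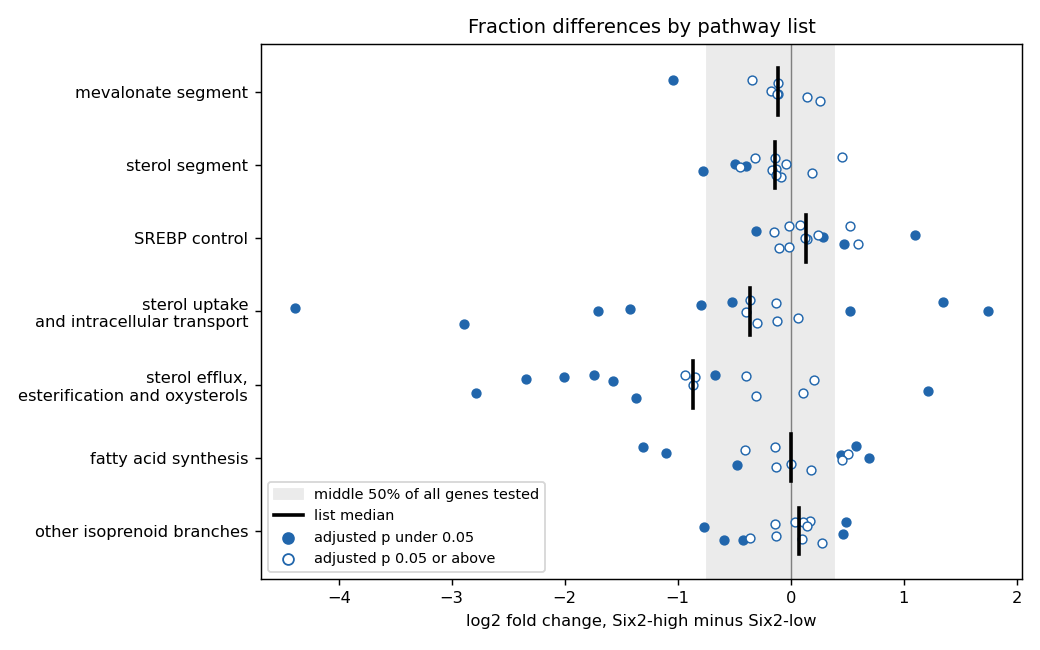
Log2 fold change between Six2-high and Six2-low (horizontal axis) of each tested gene in the 7 pathway lists (vertical axis), with the list median as a black bar and the middle 50% of all tested genes as a grey band from -0.74 to 0.38. The medians of the mevalonate and sterol segments were -0.12 and -0.14, and that of efflux, esterification and oxysterols was -0.86.

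Over the 7 lists, 12 genes were higher and 24 lower of 92 tested, or 39.1% called against 50.1% of all genes. With the replicate block 21 were higher and 32 lower, where 64.6% of all genes were called. Likeness was measured over 10228 other genes whose mean reached 10 CPM. The 5 whose log2 CPM over the 6 libraries ran most like the mean of the 7 genes, each centred on its own mean, were Tuft1, Dbt, Vegfb, Pfn2 and Asph, with Pearson's r from 0.96 to 0.99. Their log2 fold changes were between -0.23 and -0.054, with no call in the fraction comparison. Between pairs of the 7 genes, Pearson's r ran from -0.18 (Hmgcs1 and Insig1) to 0.96 (Srebf2 and Insig1), so their mean joins unlike profiles. The 6 libraries share 3 preparations, and the likeness is a description.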

How the data were processed

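The 6 libraries hold polyadenylated RNA. The authors deposited raw counts per gene symbol, which were used, and a normalised version, which was not. The build is mm10 per the submitters' processing notes, which also list HTSeq 0.6.1p1, SAMtools, TopHat2 2.1.0, TopHat and DESeq2, with no role for any. They give no annotation or strand setting.

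Genes were filtered with filterByExpr, scaled by TMM and tested with the two-sided quasi-likelihood F test of edgeR 4.0.16 (R 4.3.3), called at a Benjamini-Hochberg adjusted p under 0.05. Differences are Six2-high less Six2-low. Log2 CPM has a prior count of 2. The preparation test is an F test in a model of fraction and preparation. Fits were also run on simulated counts, drawn independently for each library. That run does not show how the fits behave where libraries of a preparation vary together. Alternatives were RLE scaling, no filter, DESeq2 1.42.0, a replicate block, and leaving out libraries, preparations, or Rn45s and Lars2.

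Titles give each preparation's libraries a shared tag and kit, so the numbers pair them; within pairs, deviations from fraction means correlated at 0.37, 0.42 and 0.33 over genes. Replicates of a fraction were not the same library (chi-square over its degrees of freedom, 16.1 to 200.0).

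The 7 genes and all lists were chosen with earlier results of these data known. Named genes are the 7, Six2 and Cited1 (145 ± 54.0 against 5.84 ± 1.16 CPM), the 2 smallest p of each list, genes of the mevalonate, sterol and SREBP lists, and 5 of like pattern; others were chosen after their values were seen. Some genes the rule takes are not reported here but stay in the counts. Msmo1 is Sc4mol in the table.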

Additional observations from a re-analysis of the deposited data

How the results depend on the processing

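With the replicate block 4860 genes were called higher and 5059 lower, against 3285 and 4401 without it. The lower level of Hmgcs1 kept its call in 14 of 14 alternatives, with log2 fold changes from -1.23 to -0.91 and adjusted p from 1.5e-07 to 0.018. With the replicate block 1 of the 7 genes, Insig1, became a call higher, and the block changed no other call among the 7. Insig1 was also called when Six2-high replicate 1 was left out (0.78, adjusted p = 0.046) or the pair of replicate 1 (0.51, adjusted p = 0.00995); leaving out libraries gave 0 to 1 of the 7 higher and 1 lower. Sqle, Fdft1, Idi1, Lss and Srebf2 were not called in any of 14 alternatives. Leaving out single libraries gave -0.24 to 0.0080 for Sqle, -0.17 to 0.042 for Fdft1, -0.25 to 0.0097 for Fdps, -0.26 to 0.016 for Idi1, -0.32 to 0.0053 for Lss and -0.013 to 0.27 for Srebf2. For Insig1 it gave 0.23 to 0.78. The sign turned for Sqle without Six2-high replicate 2 (0.0080), Six2-low replicate 3 (0.0014) or both libraries of replicate 2 (0.027), and for Fdft1 in the same 3 settings (0.032, 0.042 and 0.024). For Fdps it turned without Six2-high replicate 2 (0.0097) or both libraries of replicate 2 (0.0015). It also turned for Idi1 without Six2-low replicate 3 (0.016), Lss without Six2-low replicate 2 (0.0053) and Srebf2 without Six2-low replicate 1 (-0.013). Without the pair of replicate 3, Mbtps2, Zmpste24 and Pltp lost their calls (adjusted p = 0.071, 0.053 and 0.052). Over all genes, leaving out libraries gave 1329 to 3183 calls higher and 3300 to 4579 lower; the fewest higher were without both libraries of replicate 3, with 2160 without Six2-low replicate 2 and 2086 without both of replicate 2. Over the pathway lists it gave 4 to 15 higher and 14 to 28 lower, and the replicate block gave 21 higher. The preparation test was unstable: 240 genes were called, 385 with RLE scaling, 1256 with no filter, and 1 to 7274 without single libraries, where 1 residual degree of freedom remains. Among the 7 genes it called 2 with RLE scaling and 2 with no filter, Srebf2 being added (adjusted p = 0.0499 and 0.0327), and 0 to 7 without single libraries. The cause of these changes was not tested. Counts per library of the 7 genes were 419 or more; how much of their spread is counting error was not tested.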
